A study of Mus musculus with 7 samples.

Results

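The merged transcript annotation of mouse B cells held 468 spliced loci whose transcripts were all classed as intergenic against the gene annotation that named the others. They were chosen from 25100 merged loci by 2 conditions: every transcript of the locus carried the class code u, which marks an intergenic transcript, and at least 1 transcript had 2 or more exons. A further 1583 loci with that code had single-exon transcripts only, and 23049 loci carried gene names. The level of a member in a library was the summed FPKM (fragments per kilobase of transcript per M mapped fragments) of assembled pieces of 300 bases or more on the same strand. A piece counted when its exons overlapped those of the member by 50% or more of the shorter. FPKM is scaled per library and by the length assembled there, which differed between libraries for some members.

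The RNA came from primary B cells of wild-type C57BL/6 mice, in 7 libraries of 1 condition each. The first was taken at 0 h with no treatment, and the others after culture for 8 h or 30 h with anti-IgM, with BAFF, or with the 2 combined. Anti-IgM is an antibody that crosslinks the B cell antigen receptor, and BAFF is a cytokine for B cell survival. No group had a second library, so conditions could not be tested against each other or set against the spread between replicates. Time in culture and stimulus cannot be told apart in comparisons with the unstimulated library, since every cultured library had a stimulus. Mapped reads, recovered from FPKM and length, ran from 18.8 M with BAFF at 8 h to 28.6 M with anti-IgM at 8 h. B cell markers were abundant in every library (summed FPKM of 10 genes between 1295 and 3673). Neutrophil markers had no level in any, and Ly6g was not in the merged annotation. Of 8 T cell markers, 4 (Cd3e, Cd3d, Cd8b1 and Thy1) had no level in any of the 7 libraries, and the list summed to 14.9 to 95.4 FPKM, most of it Lck. Macrophage markers summed to 215 to 403 FPKM, most of it Cd68 in culture. Some were highest unstimulated, such as C1qa at 40.3 FPKM there and with no level or up to 5.08 in the cultured libraries.

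An intergenic transcript lies between annotated genes, and splicing of its exons is a mark of a processed RNA. Long noncoding RNAs make no protein, are often low in level and often start close to the promoter of another gene, on the opposite strand. Antigen receptor genes are a special case: variable (V), diversity, joining and constant segments are separate in the germline and are brought together by recombination of the DNA as a B cell forms. Each B cell transcribes its own rearranged V gene for the heavy chain and for a kappa or lambda light chain, with an intron between the short leader exon and the V exon.

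The splicing of many members was the splicing of immunoglobulin V genes. Of 468 members, 234 shared an intron with a GENCODE transcript for which the joined exons could be read. Among the 240 members that matched any GENCODE intron, 98 overlapped an antigen receptor gene and 142 did not. Some joins of V genes are shown here because the levels of their members carry the results that follow. Each line gives the 60 bases around an exon join, 5′ to 3′ on the transcribed strand, from GENCODE M21 transcripts on GRCm38. Capitals mark the 8 bases on either side of the join, where the leader exon meets the V exon.
Igkv1-117: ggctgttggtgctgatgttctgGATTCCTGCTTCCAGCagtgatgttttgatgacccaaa
Igkv1-110: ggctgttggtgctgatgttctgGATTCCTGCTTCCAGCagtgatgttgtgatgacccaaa
Igkv1-135: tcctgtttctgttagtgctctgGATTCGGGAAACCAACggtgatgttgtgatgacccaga
Igkv13-84: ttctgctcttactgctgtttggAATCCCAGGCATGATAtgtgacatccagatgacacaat
Igkv14-111: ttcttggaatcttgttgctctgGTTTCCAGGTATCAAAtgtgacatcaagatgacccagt
Iglv1: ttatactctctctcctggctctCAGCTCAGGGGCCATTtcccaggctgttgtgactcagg
Iglv2: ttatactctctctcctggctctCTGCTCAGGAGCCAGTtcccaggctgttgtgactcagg
Ighv1-81: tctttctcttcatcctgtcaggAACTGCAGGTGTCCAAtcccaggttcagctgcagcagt
Ighv1-82: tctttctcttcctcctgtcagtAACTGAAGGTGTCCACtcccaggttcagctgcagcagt

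The paired genes show how alike V genes of 1 member can be. Igkv1-117 and Igkv1-110, which 1 member spans, differ at 1 of these 60 bases, Iglv1 and Iglv2 at 3, and Ighv1-81 and Ighv1-82 at 4. How the authors' counting divided reads between such copies is not given in the sources used here, so levels of single V genes are uncertain. The introns behind these joins lie at chr6:68121137-68121514 (Igkv1-117), chr6:68270573-68270954 (Igkv1-110), chr6:67609794-67610195 (Igkv1-135), chr6:68939651-68939769 (Igkv13-84) and chr6:68256459-68256571 (Igkv14-111), all on the plus strand. Those of the others lie on the minus strand, at chr16:19085322-19085414 (Iglv1), chr16:19260706-19260798 (Iglv2), chr12:115920584-115920666 (Ighv1-81) and chr12:115952843-115952924 (Ighv1-82).

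Other members joined exons of long noncoding or overlooked transcripts, and 3 of those described further on are shown in the same way.
Cct6a, chr5:129845073-129845582, plus strand: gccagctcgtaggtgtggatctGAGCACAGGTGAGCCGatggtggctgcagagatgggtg
Gm19585, chr17:52149405-52158490, plus strand: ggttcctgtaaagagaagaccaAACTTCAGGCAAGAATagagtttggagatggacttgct
Ms4a4a, chr19:11390363-11392670, plus strand: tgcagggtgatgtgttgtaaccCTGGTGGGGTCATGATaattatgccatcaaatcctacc

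The coordinates of these lines are the introns that the join spans. Members with no transcript in GENCODE are given by position only.

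Most members overlapped genes of a later annotation, where any shared exon base counted. Of the 468, 309 (66.0%) overlapped a gene of GENCODE M21 on the same strand: 106 an antigen receptor gene, 128 a long noncoding RNA, 49 a protein-coding gene, 23 a pseudogene and 3 another kind. The 23049 named loci held 0 immunoglobulin segment names, so no immunoglobulin segment had a named locus in this annotation. Of the other members, 5 lay in an immunoglobulin region, or within 10000 bases of one, without overlapping a gene. The remaining 154 lay elsewhere and overlapped none. The members had 1143 introns in all, and 450 of these (39.4%) matched a GENCODE intron to the base, in 240 members. In 143 members all introns matched. Structures were mostly simple, with 298 members of 2 exons at most, 37 of 5 or more, and a median of 1099.5 exon bases.

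Presence differed between these classes. A level was found in at least 1 library for 456 members, in all 7 for 77, in 1 library only for 170, and in none for 12. Among members that overlapped antigen receptor genes, 51 of 106 had a level in all 7 libraries, against 3 of 154 of those that overlapped no gene. Of the latter, 78 had a level in 1 library only. Members seen in 1 library were also thin, with a median of 17.6 reads in that library, while those seen in all 7 had a median of 265 reads. A missing level is therefore not read here as no expression.

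**Figure D1:**
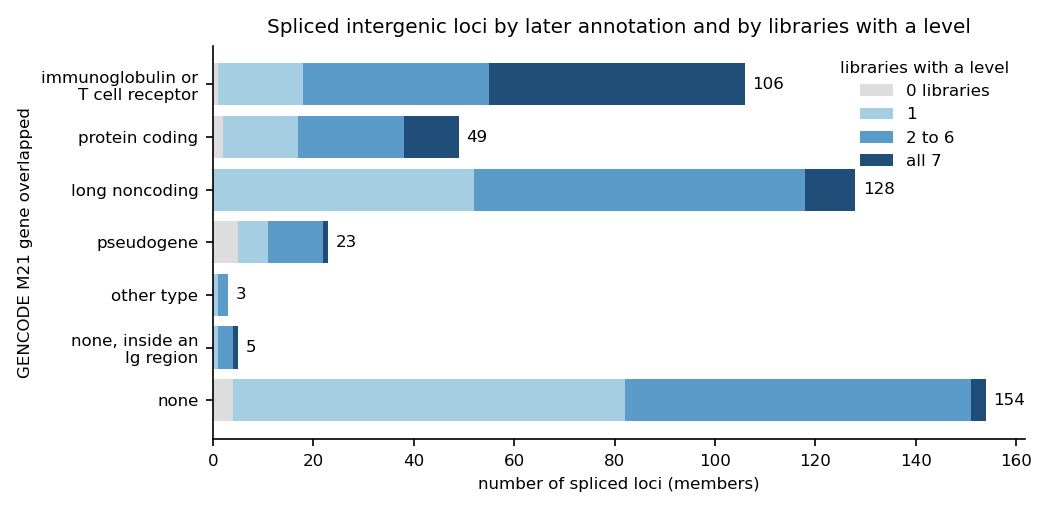
Number of members (x axis) by the kind of GENCODE gene that they overlap (y axis), with bars split by the number of libraries that had a level. Antigen receptor members were most often found in all 7 libraries (51 of 106), and members overlapping no gene most often in 1 library (78 of 154).

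Antigen receptor genes carried most of the summed FPKM. Over the 106 members that overlapped one, summed FPKM was 14353 unstimulated, 10435, 11441 and 11204 with anti-IgM, with BAFF and with both at 8 h, and 10723, 12854 and 8626 at 30 h. The 357 members outside the immunoglobulin regions summed to between 632 and 1355 FPKM. The median of a member's highest level was 43.4 FPKM for antigen receptor members and 2.43 FPKM for those outside. The immunoglobulin regions, taken from the GENCODE genes, were chr12:113254830-116010093 (heavy chain), chr6:67555497-70726966 (kappa) and chr16:19061618-19260859 (lambda).

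Constant region loci had the highest levels. The heavy chain locus XLOC_005235, with Ighm and Ighd (chr12:113404719-113429726, minus strand, 11 exons), encodes the constant parts of IgM and IgD. It read 1513 FPKM unstimulated, 2074, 1207 and 1882 with anti-IgM, with BAFF and with both at 8 h, and 1872, 3138 and 1920.5 at 30 h. The kappa constant locus XLOC_018038, with Igkc (chr6:70718980-70755715, plus strand), read 1996 unstimulated, 2354, 1057 and 3063 at 8 h, and 2762, 582 and 1299 at 30 h. Igkc FPKM was lower in both BAFF libraries than in the other 5. The lambda constant locus XLOC_008616 (chr16:19061361-19200395, minus strand) read 3229 unstimulated and between 1076 and 2136 in the 6 cultured libraries.

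The length of what was assembled bears on these levels. The Igkc locus was assembled over 1370 bases in the unstimulated library and over 12210 with BAFF at 30 h, and FPKM divides by that length. As a second measure, added after the values were seen, the reads behind each piece were summed and divided by the mapped reads, as reads per M mapped reads (RPM). RPM is not corrected for assembled length, so a library that assembled fewer bases can have a lower RPM. On that scale the Igkc locus stood at 2306 unstimulated, 1230, 2128 and 1448 at 8 h, and 1331, 1746 and 1446 at 30 h. There the BAFF libraries lay above the 4 libraries with anti-IgM, the opposite of the order by FPKM. Reads were also assigned to the exons of single genes, in proportion to the share of each piece's bases that lay on them. That share divides by assembled length, as FPKM does, so these values are not separate from FPKM. The RPM assigned to the exons of Igkc alone kept the order by FPKM. They were 377 and 320 with BAFF at 8 h and 30 h, 926 unstimulated and 599 to 1013 with anti-IgM. The Ighm and Ighd locus went the same way by reads, with 7815, 7698 and 5963 RPM unstimulated and with BAFF at 8 h and 30 h, and 3805 to 4256 with anti-IgM. The RPM assigned to the exons of Ighm alone did not: they were 1708 unstimulated, 2505 with anti-IgM and 1981 with BAFF at 8 h, and 2461 and 3856 at 30 h. Because the levels of these loci turn with the measure, no direction is given for the Igkc locus or the Ighm and Ighd locus.

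Immunoglobulin V genes were lower in the libraries with anti-IgM than in those without. The 95 members that overlapped V genes (46 heavy, 48 kappa, 1 lambda) held 145 V genes in all, and 26 of them spanned several genes. Their summed FPKM was 7578.5 unstimulated, 3850 with anti-IgM, 7471 with BAFF and 4547 with both at 8 h, and 4382, 7077 and 4311 at 30 h. All 4 libraries with anti-IgM lay between 3850 and 4547, and the 3 without it between 7077 and 7578.5. The 44 V members with a level in every library gave the same split, with sums of 3195 to 3897 against 5456 to 6426.

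Reads assigned to all V genes of GENCODE showed it for each chain. They were calculated back from FPKM and taken from pieces of any length and strand, in proportion to overlap. They are thus not independent of the FPKM sums. For 113 heavy V genes the sums were 590 RPM unstimulated, 269, 513 and 283 with anti-IgM, with BAFF and with both at 8 h, and 291, 580 and 317 at 30 h. For 102 kappa V genes they were 1042 unstimulated, 575, 955 and 594 at 8 h, and 633, 944 and 612 at 30 h. For 3 lambda V genes they were 155 unstimulated, 79.3, 112 and 84.9 at 8 h, and 54.2, 119 and 56.5 at 30 h. Within each chain the anti-IgM libraries, with or without BAFF, did not overlap the other 3. B cell markers summed to 2834, 2664 and 3673 FPKM in the libraries without anti-IgM and to between 1295 and 2165 in those with it. Not all of these markers split so. Cd79b read 816 and 635 with anti-IgM and with both at 30 h, and 334, 470 and 935 without anti-IgM. Cd22 did split, at 167 to 353 without anti-IgM and 50.8 to 137 with it. The part of these markers in the V gene levels was not tested. In such bulk samples, fewer cells of a type and less RNA per cell cannot be told apart.

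**Figure D2:**
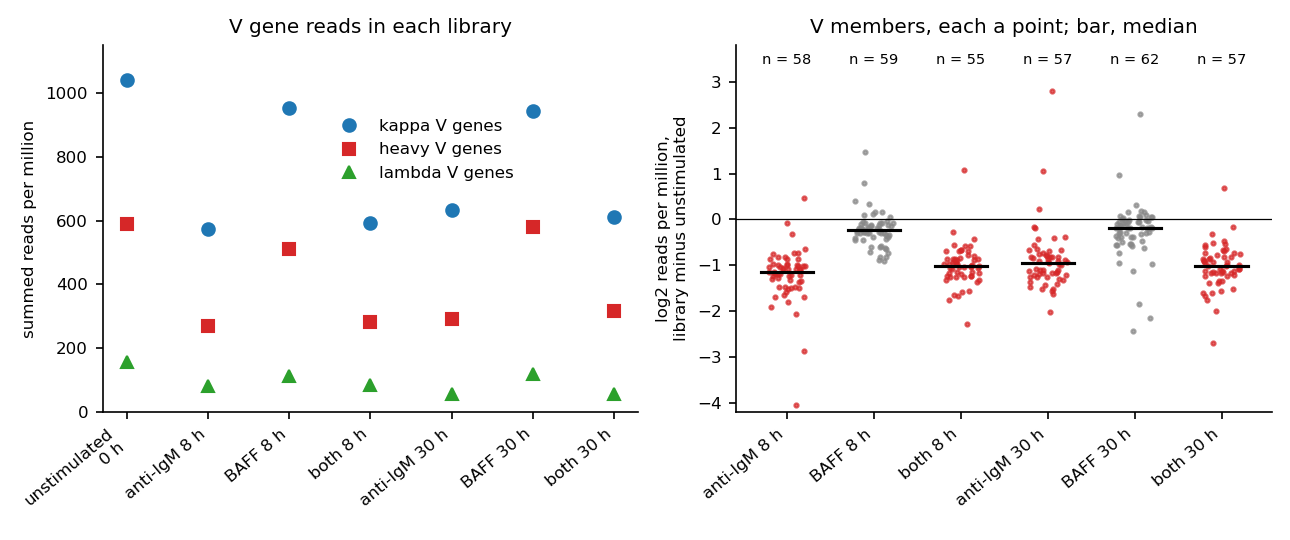
Left, summed RPM (y axis), calculated back from FPKM and assigned by overlap to heavy, kappa and lambda V genes, in each library (x axis). Right, the log2 difference in RPM from the unstimulated library for each V member (points) in the 6 cultured libraries, with the median as a bar: it was -1.15 with anti-IgM and -0.23 with BAFF at 8 h.

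Single V members followed the sums, with differences in how far. XLOC_018025, which spans Igkv1-117, Igkv1-110 and Igkv1-122 (chr6:68016732-68271266, plus strand), read 955 FPKM unstimulated, 338, 689.7 and 471 with anti-IgM, with BAFF and with both at 8 h, and 467, 791 and 448 at 30 h. The lambda member XLOC_008617, with Iglv1 and Iglv2 (chr16:19085019-19260988, minus strand), read 729.9 unstimulated, 424, 759 and 397 at 8 h, and 275, 664 and 307 at 30 h. XLOC_005283, with Ighv1-81, Ighv1-82 and others (chr12:115868770-115953084, minus strand), read 399.7 unstimulated, 64.9, 283 and 145 at 8 h, and 133, 172 and 145 at 30 h. For these 3 members every library with anti-IgM was below every library without it.

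Igkv13-84 did not split by FPKM but did by reads. XLOC_018035 (chr6:68939358-68940070, plus strand) read 99.5 FPKM unstimulated, 19.2, 73.5 and 31.0 at 8 h, and 27.2, 58.2 and 68.4 at 30 h, so that both stimuli at 30 h lay above BAFF. It was assembled over 361 bases in that library and over up to 587 in others, and its RPM were 14.8, 12.6 and 13.0 without anti-IgM and 7.12 to 9.97 with it. Igkv1-135, in XLOC_018019 (chr6:67609583-67610505, plus strand), read 232 FPKM unstimulated, 235, 312 and 261 at 8 h, and 164, 344 and 182 at 30 h. Its RPM were 71.0, 58.9 and 63.7 without anti-IgM and 33.1 to 45.1 with it. Among V members in all 7 libraries with a median of 5 FPKM or more, the smallest range was that of Igkv14-111, in XLOC_018029 (chr6:68243149-68256868, plus strand), between 89.2 and 148, and its RPM were 26.4, 21.4 and 21.8 without anti-IgM and 14.4 to 16.7 with it.

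Counted over all V members with a level in every library, the split was the rule. By RPM, 41 of 44 were lower in all 4 libraries with anti-IgM than in all 3 without, and 0 were higher. Among all 9344 loci with a level in every library, 17.5% were lower in this sense and 18.0% higher. By FPKM, 24 of 44 V members were lower in all 4, against 12.6% of all loci, and 0 were higher, against 12.1%. Neither measure is free of assembled length: where fewer bases were assembled, RPM can be lower and FPKM higher. The part of assembled length in these counts was not tested.

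Calls between single pairs of libraries told the same. A call needed a level in both libraries, at least 1 FPKM in 1 of them, a change of 1 or more in log2(FPKM + 1), and authors' FPKM intervals that did not overlap. With anti-IgM at 8 h against unstimulated, 47 of 125 members were called, 8 higher and 39 lower, and 21.3% of all tested loci were called, 10.6% higher and 10.7% lower. V members made up 29 of the 39, and 2 of the 8. With both stimuli at 8 h, 9 members were higher and 28 lower of 114 (all loci 21.3%, with 12.3% higher and 8.96% lower), with 4 and 18 V members among them. With anti-IgM at 30 h, 7 were higher and 25 lower of 120 (all loci 15.6%, with 8.30% and 7.34%), with 4 and 18 V members, and with both at 30 h 5 were higher and 26 lower of 125 (all loci 16.1%, with 8.19% and 7.87%), with 0 and 19.

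By these calls BAFF alone did not show this. At 8 h, 8 members were higher and 5 lower of 147 (all loci 9.81%, with 5.67% higher and 4.14% lower), with 2 V members each way. At 30 h, 11 were higher and 7 lower of 153 (all loci 9.13%, with 5.13% higher and the rest lower), with 4 and 6 V members. These V calls were of 62 tested V members, a share above that of all loci, but they went both ways. Scaling the libraries by the median ratio of named loci, which moved levels by up to 0.18 on the log2 scale relative to the unstimulated library, turned these splits to 5 higher and 11 lower at 8 h and 8 higher and 10 lower at 30 h. By reads they were 11 and 11 at 8 h (all loci 10.1%) and 11 and 18 at 30 h (all loci 8.96%). Over all members the shares called by FPKM, 8.84% at 8 h and 11.8% at 30 h, lay near the background and say nothing about the members.

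The median difference of V members, on the log2(FPKM + 1) scale, was -0.98 with anti-IgM at 8 h, -0.67 with both at 8 h, -0.70 with anti-IgM at 30 h and -0.72 with both at 30 h. With BAFF it was -0.06 at 8 h and -0.05 at 30 h. Over all tested loci the medians lay between 0.01 and 0.12. Measured as RPM, 57 of 58 V members were below the unstimulated library with anti-IgM at 8 h, 54 of 55 with both, 54 of 57 with anti-IgM at 30 h and 56 of 57 with both. With BAFF, 50 of 59 were below at 8 h and 48 of 62 at 30 h, with medians of -0.23 and -0.19. Over all tested loci the RPM medians with BAFF were 0.15 at 8 h and 0.10 at 30 h. These 6 comparisons share the unstimulated library.

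Anti-IgM set directly against BAFF, with no unstimulated library in it, gave the same direction. At 8 h, 3 members were higher with anti-IgM and 38 lower of 142 (all loci 13.5%, with 4.82% higher and 8.66% lower), and V members were 1 and 28 of these. At 30 h, 9 were higher and 21 lower of 130 (all loci 8.76%, with 3.90% and 4.85%), with 4 and 11 V members. The V medians were -0.91 at 8 h and -0.63 at 30 h, and those of all loci -0.06 and 0.00. In RPM, 62 of 63 V members were lower with anti-IgM at 8 h, and 55 of 60 at 30 h.

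**Figure D3:**
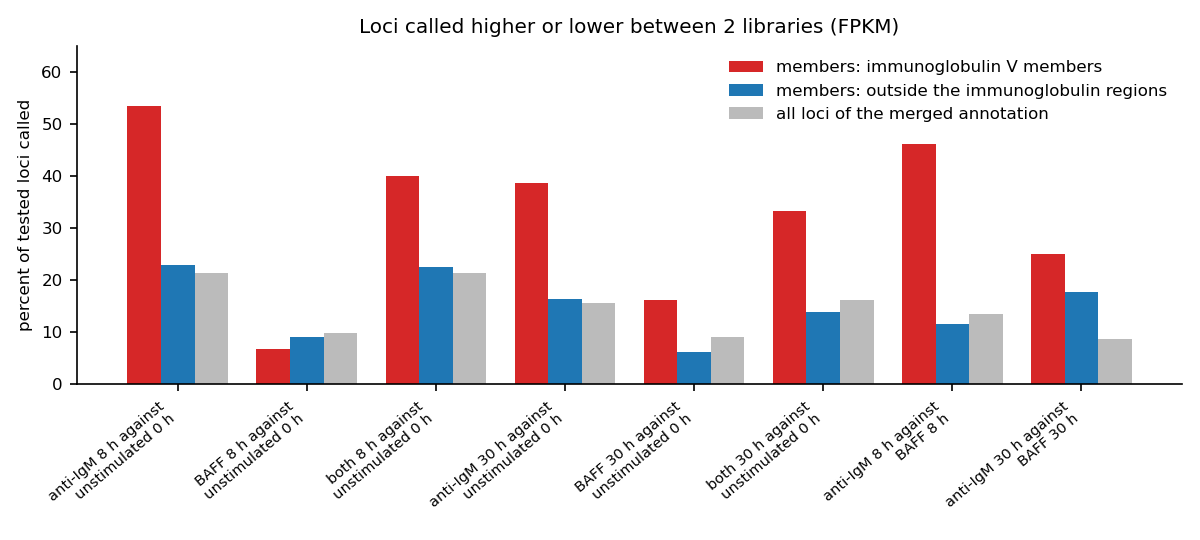
Percent of tested loci called higher or lower by FPKM (y axis) in 8 comparisons between 2 libraries (x axis), for V members, members outside the immunoglobulin regions and all loci. Called in either direction, V members stand above all loci in the 6 comparisons with anti-IgM, and also with BAFF at 30 h (4 higher and 6 lower of 62). Most of the calls with anti-IgM were lower, such as 29 lower and 2 higher of 58 at 8 h.

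Comparisons of both stimuli with anti-IgM, and of 30 h with 8 h, gave calls whose direction depended on the measure. With both stimuli against anti-IgM at 8 h, 16 members were higher and 6 lower of 143 by FPKM (all loci 6.28%, with 4.43% higher and 1.85% lower), and 3 and 3 were called the same way by reads, against 0.471% of all loci. At 30 h, 9 were higher and 9 lower of 129 (all loci 5.46%, with 2.15% and 3.31%), and 6 and 6 were called the same way by reads, against 0.959%. Between 8 h and 30 h of anti-IgM, 19 were higher at 30 h and 9 lower of 124 (all loci 13.2%, with 7.89% and 5.32%). The same step gave 11 and 8 of 152 with BAFF (all loci 7.80%, with 3.66% and 4.14%) and 6 and 13 of 128 with both stimuli (all loci 12.5%, with 5.51% and 7.01%). Called the same way by reads were 8 higher and 7 lower with anti-IgM (all loci 7.60%), 5 and 3 with BAFF (all loci 2.28%) and 4 and 6 with both (all loci 6.97%). By reads alone the splits were 13 and 14 with anti-IgM (all loci 15.2%), 13 and 14 with BAFF (all loci 6.68%) and 10 and 10 with both (all loci 14.5%), and for both against anti-IgM at 8 h 8 and 8 (all loci 2.28%). Under scaling the split of both stimuli between 8 h and 30 h turned to 10 higher and 9 lower. No direction is therefore given for these comparisons, other than by measure.

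Some immunoglobulin members with a higher FPKM under anti-IgM were assembled over fewer bases there. Igkv5-48, in XLOC_018650 (chr6:69725451-69727277, minus strand), read 19.4 FPKM in the unstimulated library and 68.3 with anti-IgM at 30 h. Its assembled length was 1525 bases in the first library and 389 in the second, and its RPM were 25.4 and 11.9. Igkv1-88, in XLOC_018643, read 8.54 and 29.1 FPKM unstimulated and with both at 8 h, over 1123 and 372 bases, with 7.75 and 3.52 RPM. For these 2 members the direction by reads was opposite to that by FPKM.

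Class-switched constant genes were low. XLOC_005234, with Ighg3 (chr12:113356238-113366688, minus strand), the constant region of IgG3, read 10.9 FPKM unstimulated, 1.87, 4.80 and 3.35 with anti-IgM, with BAFF and with both at 8 h, and 5.60, 16.3 and 6.58 at 30 h. XLOC_005230, with Igha, the constant region of IgA (chr12:113254910-113260338, minus strand), read 9.64 unstimulated, 4.43, 7.80 and 3.75 at 8 h, and 5.06 with BAFF and 1.25 with both at 30 h. Both had their highest level in a library without anti-IgM. By FPKM the Ighg3 libraries overlapped, since BAFF at 8 h lay below anti-IgM and both at 30 h. Its assembled lengths were alike, at 2755 to 3322 bases, and its RPM were 24.4, 13.4 and 33.9 without anti-IgM and 3.67 to 12.9 with it, which did not overlap.

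A spliced locus beside the lambda genes differed widely between libraries. XLOC_008615 (chr16:19025247-19052345, minus strand, 4 exons) lies next to the lambda region and overlaps no GENCODE gene. It read 1.94 FPKM unstimulated, 7.14, 5.90 and 6.01 at 8 h, and 1.49, 9.07 and 7.83 at 30 h. It stood at 8.79 RPM unstimulated, 89.0, 28.4 and 26.7 at 8 h, and 15.9, 96.6 and 69.4 at 30 h. Anti-IgM at 30 h was the lowest of the cultured libraries by both measures.

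The gene for the T cell receptor alpha constant region, Trac, was also among the members. XLOC_006578 (chr14:54168677-54224164, plus strand) had a level only in the 4 libraries with anti-IgM: 7.73 FPKM with anti-IgM and 4.26 with both at 8 h, and 2.55 and 1.79 at 30 h. Behind these levels stood 101, 54.0, 16.9 and 21.9 reads. Beside the 4 T cell markers with no level, Cd3g, at 1.62 FPKM, had a level with anti-IgM at 30 h only. Cd4 had a level unstimulated (4.62) and with BAFF at 30 h (1.14), and Cd8a unstimulated only (3.15), so neither had one where Trac did. The summed T cell marker level ran from 44.8 to 95.4 FPKM with anti-IgM and from 14.9 to 36.2 without, and Lck, a kinase gene, made up 44.8 to 93.8 of the former.

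Outside the immunoglobulin regions, 33 of 357 members were called the same way by FPKM and by reads in at least 1 of 13 comparisons. Of these, 12 were called so in at least 3. Among loci tested in at least 1 comparison these are 18.9% and 6.86% of 175 members, against 27.4% and 12.4% of all 11694 loci, so such calls were not more frequent among the members. Those described next were picked from the 12 after their values were seen, unless the rule for named members had them too. Over all members outside the regions, counts by FPKM were 5 higher and 8 lower of 57 with anti-IgM at 8 h and 5 higher and 2 lower of 77 with BAFF at 8 h. At 30 h they were 3 and 6 of 55 with anti-IgM, and 5 and 0 of 81 with BAFF. These shares lie near the background of all loci given above, and nothing is read from them. Between cultured libraries some shares stood above it. Anti-IgM against BAFF at 30 h called 4 higher and 7 lower of 62 (17.7%, all loci 8.76%), with 3 and 5 the same way by reads (all loci 3.48%). Both against anti-IgM at 8 h called 8 and 4 of 73 (16.4%, all loci 6.28%), with 2 and 2 the same way by reads (all loci 0.471%). Anti-IgM against BAFF at 8 h lay below it, at 11.6% (all loci 13.5%). The cause was not tested.

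Members with higher values under anti-IgM included a noncoding Cct6a transcript. XLOC_016828 (chr5:129844732-129846627, plus strand, 3 exons) overlaps a GENCODE entry named Cct6a and ends 281 bases before Sumf2. It is counted here among the 128 long noncoding members. The name Cct6a stands for a subunit of the chaperonin that folds actin and tubulin, but the levels below are those of the noncoding member. Both of its introns are those of a noncoding Cct6a transcript in GENCODE. It read 38.6 FPKM unstimulated, 107, 81.9 and 132 with anti-IgM, with BAFF and with both at 8 h, and 70.8, 83.1 and 108 at 30 h. Its RPM was 31.1 unstimulated, 55.8 and 50.7 with BAFF, and 67.1 to 115 with anti-IgM. Every stimulus stood above the unstimulated library by both measures, and by reads the 4 libraries with anti-IgM were the highest.

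XLOC_023810 (chr9:115609355-115611850, minus strand, 2 exons) overlaps no gene and lies 267431 bases from the nearest named one. It read 1.59 FPKM unstimulated, 6.56 with anti-IgM and 6.26 with both at 8 h, and 7.0, 2.71 and 8.62 with anti-IgM, BAFF and both at 30 h, with no level with BAFF at 8 h. The 4 libraries with anti-IgM had 71.0 to 146 reads there, and the unstimulated and BAFF 30 h libraries 21 and 21.9. By both measures the 4 libraries with anti-IgM were the highest.

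Gm19585, a long noncoding RNA gene, was highest at 30 h of anti-IgM. XLOC_009418 (chr17:52149226-52163725, plus strand, 4 exons) read 7.10 FPKM unstimulated, 9.58, 9.91 and 6.40 at 8 h, and 26.3, 5.77 and 14.8 at 30 h. Its assembled length was alike, at 957 to 1223 bases, and its RPM were 20.2 and 11.0 with anti-IgM and both at 30 h, and 4.28 to 8.45 elsewhere. XLOC_001807 (chr10:96266641-96292780, plus strand), which overlaps no gene, was highest with anti-IgM and both at 30 h, at 9.74 and 11.5 FPKM, against 2.49 to 3.65 in the 3 other libraries with a level.

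Ms4a4a was highest at 8 h with both stimuli, followed by anti-IgM. XLOC_010891 (chr19:11388064-11393447, plus strand) overlaps this gene of a family of membrane proteins that includes CD20. It read 5.96 FPKM unstimulated, 16.2, 8.16 and 19.7 with anti-IgM, with BAFF and with both at 8 h, and 5.67, 12.7 and 7.40 at 30 h. Its RPM were 10.6 and 12.1 with anti-IgM and both at 8 h, and 3.93 to 7.94 elsewhere. At 30 h the order of anti-IgM and BAFF was the reverse of that at 8 h.

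Members with lower values under anti-IgM included 1 of the most abundant outside the immunoglobulin regions. XLOC_020961 (chr7:106503873-106529275, minus strand) overlaps Gm8995, annotated as a transcribed pseudogene, and was assembled over 7898 to 8000 bases in every library. It read 79.1 FPKM unstimulated, 36.9, 43.5 and 34.7 at 8 h, and 33.0, 41.3 and 32.8 at 30 h. All 6 cultured libraries were below the unstimulated one, and by both measures the 4 with anti-IgM lay below the 2 with BAFF alone.

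Gm39556 was highest with BAFF at 8 h. XLOC_007397 (chr15:74922297-74939049, plus strand, 5 exons) overlaps this long noncoding RNA gene and a processed pseudogene, Gm6610, and lies 14908 bases upstream of Ly6e. It read 4.95 FPKM unstimulated, 3.06, 12.9 and 3.74 with anti-IgM, with BAFF and with both at 8 h, and 2.41, 6.24 and 0.841 at 30 h. Its RPM was 29.5 unstimulated, 92.8 and 48.0 with BAFF, and 3.67 to 23.8 with anti-IgM. At each time BAFF alone stood above the unstimulated library, and BAFF beside anti-IgM below it.

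Gm48038 had the same order of the stimuli at 8 h with fewer reads, but with both stimuli its FPKM lay above the unstimulated library. XLOC_023183 (chr9:116197964-116204587, plus strand), 22601 bases from Tgfbr2, a receptor gene for TGF-beta, read 1.59 FPKM unstimulated and 0.329, 5.20 and 2.55 at 8 h. At 30 h it read 1.52 with BAFF and 1.48 with both. XLOC_017300 (chr5:101227456-101239811, minus strand), which overlaps no gene, read 5.14 unstimulated, 0.855 with anti-IgM and 3.46 with BAFF at 8 h, and 0.820, 4.98 and 4.82 at 30 h. Its RPM were 16.7, 7.27 and 15.5 in the libraries without anti-IgM and 1.12 to 4.27 in the 3 libraries with it that had a level.

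The other 3 of the 12 differed in their own ways. Gm31718, in XLOC_022452 (chr8:126812631-126881868, minus strand, 7 exons), read 6.41, 7.52 and 9.27 FPKM at 8 h and 1.54, 7.19 and 3.58 at 30 h, with no level unstimulated. XLOC_016654 (chr5:104571700-104589952, plus strand), which overlaps no gene, read 4.07 unstimulated, 6.08, 4.80 and 8.29 at 8 h, and 1.43 with anti-IgM and 6.28 with both at 30 h. XLOC_013480 (chr2:167571295-167578003, minus strand), which overlaps none either, read 3.33 unstimulated, 0.543, 2.48 and 1.86 at 8 h, and 4.46, 1.76 and 3.01 at 30 h. Among libraries with a level, Gm31718 and XLOC_016654 were lowest with anti-IgM at 30 h and XLOC_013480 with anti-IgM at 8 h.

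F730311O21Rik was highest with BAFF. XLOC_000380 (chr1:132342014-132351397, plus strand), chosen after its values were seen, overlaps this long noncoding RNA gene. It had no level unstimulated or with anti-IgM at 30 h, and read 2.98, 12.4 and 0.948 FPKM at 8 h, and 23.1 with BAFF and 4.36 with both at 30 h. Its reads numbered 29.7, 207 and 18.4 at 8 h and 1822 and 89.4 at 30 h.

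**Figure D4:**
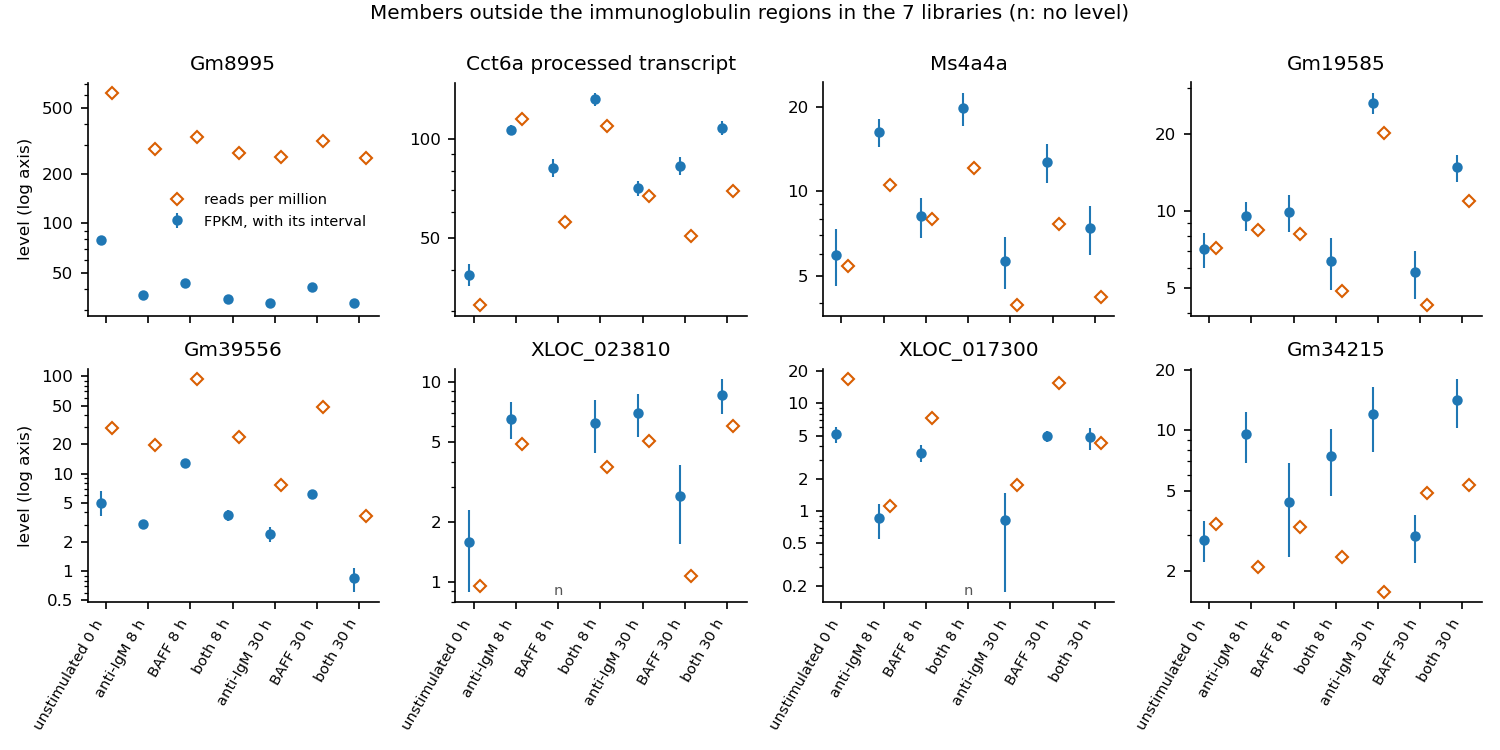
FPKM with the authors' interval (filled points) and RPM (open points), on a log y axis, of 8 members outside the immunoglobulin regions in the 7 libraries (x axis); n marks a library with no level. By both measures Gm8995 is highest unstimulated and Gm39556 highest with BAFF at 8 h, while for Gm34215 the measures part.

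For Gm34215 the measures parted. XLOC_004520 (chr12:36326345-36353610, plus strand) read 2.86 FPKM unstimulated, 9.61, 4.38 and 7.44 at 8 h, and 12.1, 2.98 and 14.1 at 30 h, so that all libraries with anti-IgM were higher. Its assembled length was 1412 bases unstimulated and 343 with anti-IgM at 30 h. Its RPM was 3.42 unstimulated, 2.09, 3.31 and 2.33 at 8 h, and 1.57, 4.87 and 5.33 at 30 h, and the libraries overlapped. Of 25 members outside the immunoglobulin regions with a level in every library, 2 were higher and 5 lower in all libraries with anti-IgM by FPKM, and 1 higher and 5 lower by reads. The 1 was the Cct6a member. Those lower by both measures were Gm8995, Gm39556, Gm15326 (XLOC_005789) and Gm16341 (XLOC_000904).

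Some members barely varied. 2610021A01Rik, in XLOC_019508 (chr7:41599248-41628603, plus strand, 7 exons), read between 5.89 and 7.0 FPKM over the 7 libraries, on 428 to 755 reads. Ppp2r3d, in XLOC_023858 (chr9:124438986-124441014, minus strand), a gene for a phosphatase regulatory subunit, read between 23.4 and 35.9. Platr25, in XLOC_006104 (chr13:62667333-62760614, minus strand), read between 5.10 and 8.33.

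Of the 37 members with 5 or more exons, 10 overlapped a protein-coding gene, 10 no gene, 8 a long noncoding RNA, 7 an antigen receptor gene and 2 a pseudogene. The 3 with the most exons overlapped protein-coding genes. Gm35339, in XLOC_007415 (chr15:76356132-76365002, plus strand), had 20 exons in 1 transcript and read 12.5 FPKM unstimulated, 5.53, 7.50 and 12.7 at 8 h, and 8.61, 10.7 and 7.56 at 30 h. Setd1b, which encodes a histone H3 lysine methyltransferase, is part of XLOC_016786 (chr5:123133712-123168626, plus strand), with 18 exons and 7.45 to 19.8 FPKM. Bin2, which encodes a membrane-bending protein of blood cells, is XLOC_008057 (chr15:100639575-100669535, minus strand), with 12 exons and 20.1 to 45.9 FPKM. XLOC_016551 (chr5:75675264-75700067, plus strand), with 9 exons, overlaps no gene and lies 18543 bases downstream of Kit. Its FPKM was highest with BAFF at 30 h (9.23) and its RPM with anti-IgM at 30 h (3.56), so its order depends on the measure.

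Short members seen in 1 library could reach high FPKM. XLOC_005820 (chr13:3298867-3299765, minus strand) read 721 FPKM with anti-IgM at 30 h and had no level elsewhere. It was assembled over 324 bases, on 1865 reads. XLOC_021763 (chr8:102865162-102865664, plus strand) read 183 FPKM with both stimuli at 8 h only, over 422 bases and 717 reads. Both overlap no gene, and the first made up more of the 1355 FPKM of members outside the immunoglobulin regions in its library than all others together. They were named here after their values were seen.

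Many members outside the immunoglobulin regions started back to back with a named gene. Of 357, 116 were divergent (opposite strand, with the starts facing away from each other), 50 convergent, 79 downstream and 74 upstream on the same strand, and 38 overlapped the span of a named gene. Within 1000 bases of that gene lay 54 of the 116 divergent members, 4 of 50 convergent, 8 of 79 downstream and 8 of 74 upstream. The 38 that overlapped a span are at distance 0, although their transcripts carry the intergenic code. The median distance was 1560.5 bases for divergent members and 16995 to 18543 for the other 3 arrangements. Among the 54 close divergent members, 31 overlapped a GENCODE long noncoding RNA, 15 no gene, 7 a protein-coding gene and 1 a pseudogene. Their median highest level was 2.25 FPKM and 24 had a level in 1 library only, close to 2.43 FPKM and 152 of 357 over all members outside the immunoglobulin regions.

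**Figure D5:**
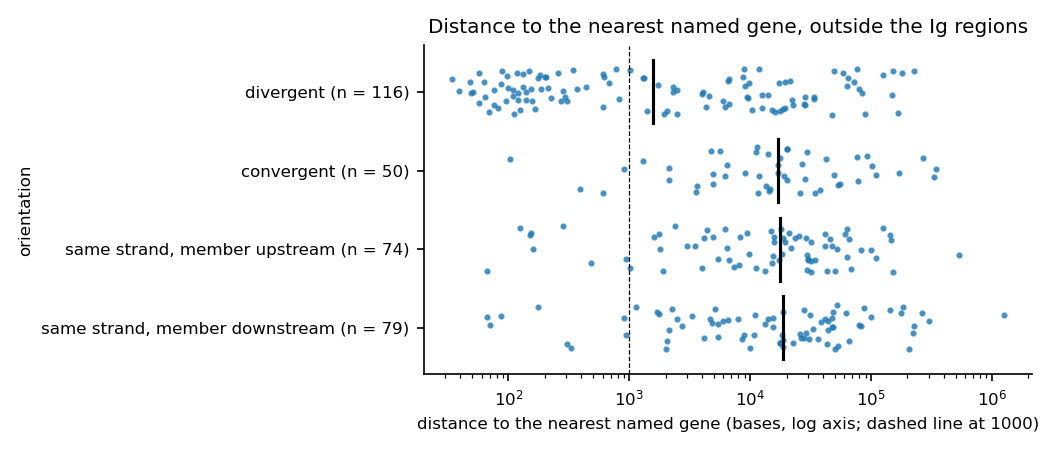
Distance in bases from each member outside the immunoglobulin regions to its nearest named gene (x axis, log scale), by arrangement (y axis), with the median as a bar and a dashed line at 1000 bases; the 38 at distance 0 are not drawn. Among members that do not overlap a named gene's span, divergent ones lie closest, with 54 of 116 within 1000 bases.

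Gm32031 is such a divergent member. XLOC_019614 starts 132 bases from Spty2d1, a histone chaperone gene, and was chosen after its values were seen. It read 1.98, 3.46 and 15.5 FPKM with anti-IgM, with BAFF and with both at 8 h and 14.8 with anti-IgM at 30 h, on 29.1, 14.6, 29.0 and 32.0 reads, and had no level in the other libraries. As RPM its 4 values were 0.777 to 1.53. Spty2d1 itself read between 8.82 and 16.6 FPKM over the 7 libraries.

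Promoter sequences from RefSeq (GRCm38.p6, 250 bases before to 50 after the start) were found for 55 members. The E-box CACGTG was in 11 of these (20.0%) and in 7.15% of all 32841 promoters. The AP-1 motif TGACTCA was in 2 (3.64%, all promoters 5.20%) and the CRE TGACGTCA in 1 (1.82%, all 1.79%). The octamer ATGCAAAT (all 1.74%), the kappaB motif (GGG, any 2 bases, TTTCC; all 1.63%) and the EGR motif GCGTGGGCG (all 0.612%) were in 0 of the 55. Both strands were searched, no motif contains another, and median GC was 55.3% for members and 52.7% for all promoters. The promoter of D730003I15Rik (chr1:191224204-191224503, plus strand) is shown because it lies beside Atf3 and holds AP-1 and E-box letters, in capitals.
D730003I15Rik: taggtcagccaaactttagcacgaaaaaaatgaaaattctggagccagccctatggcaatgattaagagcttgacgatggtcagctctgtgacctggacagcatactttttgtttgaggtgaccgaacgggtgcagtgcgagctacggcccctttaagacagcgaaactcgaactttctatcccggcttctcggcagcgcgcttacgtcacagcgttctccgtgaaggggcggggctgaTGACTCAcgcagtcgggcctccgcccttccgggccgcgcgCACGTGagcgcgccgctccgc

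XLOC_000631, the member that overlaps D730003I15Rik, is divergent from Atf3, a stress-induced transcription factor gene, at 6546 bases. It read 4.73 FPKM unstimulated, 2.17 with BAFF at 8 h and 2.85 with anti-IgM at 30 h, on 31.1, 11.4 and 13.3 reads. Atf3 read 18.6 FPKM unstimulated and between 1.89 and 3.45 in the cultured libraries. Both were highest unstimulated.

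Further members lay within 50000 bases of a gene from a list of B cell regulators. XLOC_003544 (chr11:23800687-23824275, minus strand, 5 exons) lies 29388 bases upstream of Rel, which encodes the NF-kappaB subunit c-Rel. It had no level unstimulated and read 4.17, 5.33 and 4.45 FPKM at 8 h, and 6.60, 4.20 and 5.74 at 30 h. Its RPM were 13.2 and 9.83 with anti-IgM and both at 30 h, 1.99 with BAFF at 30 h, and 5.17 to 6.03 at 8 h. Rel read 39.2 FPKM unstimulated, 140, 85.6 and 143 at 8 h, and 114, 48.9 and 105 at 30 h.

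XLOC_013247 (chr2:127321418-127335549, minus strand) is divergent from Dusp2, a phosphatase gene induced by receptor signals, at 610 bases. It read 2.48, 1.02 and 0.534 FPKM at 8 h, and 2.29 with anti-IgM and 1.52 with both at 30 h, on 14.1 to 56.1 reads. XLOC_007913 (chr15:82215168-82218119, minus strand) lies 2069 bases downstream of Tnfrsf13c, the BAFF receptor gene, and had a level in the anti-IgM and both libraries at 30 h only. Those levels, 23.0 and 17.1 FPKM, rested on 66.0 and 49.7 reads over 337 and 334 bases.

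At Ccne1, the gene for cyclin E1, which drives entry into S phase, 2 members of opposite strands lay side by side. XLOC_020542 (chr7:38087970-38090459, minus strand) read 1.06 FPKM unstimulated and 2.55, 2.08 and 2.56 with anti-IgM, BAFF and both at 30 h, with no level at 8 h. XLOC_019499 (chr7:38090533-38097751, plus strand) had a level only with anti-IgM and BAFF at 30 h, of 1.13 and 2.80. Ccne1 read 7.34 FPKM unstimulated, 2.22, 8.53 and 4.09 at 8 h, and 23.0, 8.31 and 18.1 at 30 h. Members near Irf4, Nr4a1, H2-Ab1, S1pr1, Dtx1 and Btg1 each had a level in 1 library only, of 0.238 to 2.69 FPKM.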

How the data were processed

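The authors deposited, for each of 7 libraries, transcripts that Cufflinks 2.0.2 assembled after alignment by TopHat2 2.0.5, with Bowtie2 2.0.0.7, to the mm10 build, per the submitters' processing notes. RNA was primed with poly-dT, per the labels' protocols, and the strand handling of the library kit is not given in the sources used here. The deposited values are FPKM with a lower and an upper bound per transcript, and a merged annotation gives class codes and gene names. FPKM was summed per member from same-strand pieces. Depth was fitted from pieces that were the only transcript of their gene, 85.3% to 87.1% of which came out as whole reads within 0.02, and reads were calculated back from FPKM and length. Reads are thus not independent of FPKM. A piece of 300 bases has an effective length of 87.8 to 90.5 bases, which raises FPKM of short pieces.

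Comparisons covered 13 pairs of libraries with no p-values. The call rule was tested on simulated counts with the same length in both libraries, which cannot show how calls turn with assembled length. GENCODE M21 and the deposited build matched: 97.84% of named loci found in both overlapped. Members, lists and comparisons were chosen with earlier results of these data known. The GENCODE classes and the reads were added after the values were seen. Named members were the 10 highest medians, the 3 largest called differences each way at 5 FPKM in 8 comparisons, the 5 smallest ranges, the 5 with most exons and those near listed regulators, and others are said to be chosen later. 9 alternatives were planned and 2 added. Tools were pandas 2.3.3, numpy 2.4.6 and, for figures, matplotlib 3.10.9, under Python 3.11.15.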

Additional observations from a re-analysis of the deposited data

Results flagged for a closer look

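XLOC_017453, which overlaps AI480526 (chr5:123133712-123141951, minus strand), lay below the unstimulated library with both stimuli at 8 h and above it at 30 h. It read 3.83 FPKM unstimulated, 1.28 with both at 8 h, and 3.64 with BAFF and 12.7 with both at 30 h, with no level in the other libraries. The log2 differences from the unstimulated library were -1.08 at 8 h and 1.5 at 30 h, 2.58 apart, and this difference was not tested, since each condition was 1 library. By reads per M mapped reads the step at 8 h was small, 7.56 against 9.08, and 83.5 at 30 h stood above both. The assembled length was 2586 bases unstimulated and 6126 and 6806 bases with both stimuli.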

How the results depend on the processing

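No paired analysis was possible because each condition had 1 library, and no library could be left out of a comparison for the same reason. Of 149 values recomputed under alternatives, 105 stayed within 1.5 times without a turn of direction, 35 moved further and 9 reversed. Of the 143 that are counts of calls, 116 kept the same majority of higher or lower, 7 became even, 9 turned, and 11 belong to both against anti-IgM at 30 h, which was even to begin with (9 and 9) and came out at 11 and 10 with the lower pseudocount, 7 and 6 at 5 FPKM, 7 and 9 at 80% overlap and 10 and 11 at any length. The 13 comparisons are given in the order of the report, each stimulus against unstimulated at 8 h and 30 h, anti-IgM against BAFF, both against anti-IgM, and 30 h against 8 h. Counting pieces with no strand called 74, 45, 67, 77, 47, 70, 68, 77, 36, 36, 52, 52 and 37 members, and 154 members then had a level in all 7 libraries. Setting absent levels to 0 called 208, 148, 192, 187, 151, 180, 166, 172, 103, 127, 154, 152 and 117, and the majority direction turned for both against anti-IgM at 8 h (103) and for 30 h against 8 h of anti-IgM (154) and of both (117). Scaling by the median ratio turned it for BAFF at 8 h (16 called) and 30 h (18) and for both at 30 h against 8 h (19). RPM in place of FPKM called 22 with BAFF at 8 h, 56 with anti-IgM at 30 h, 29 with BAFF at 30 h (direction turned), 51 with both at 30 h, 27 for 30 h against 8 h of anti-IgM and 27 of BAFF (both turned). Called by both measures were 5 with BAFF at 8 h, 6 with BAFF at 30 h, 27 and 17 for anti-IgM against BAFF, 6 for both against anti-IgM at 8 h, and 15, 8 and 10 for 30 h against 8 h. The cause of these shifts was not tested. The pseudocount, minimum level, intervals, piece length and overlap turned no majority, but with a minimum of 5 FPKM BAFF at 30 h against 8 h became even (7 and 7). By RPM both against anti-IgM at 8 h (8 and 8) and both at 30 h against 8 h (10 and 10) became even. Limits are the single library of each condition, intervals that cover counting error only, unknown strand handling, and few reads, with a median of 17.6 for members seen in 1 library.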
